A study of Macaca mulatta with 6 samples.

Results

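One CCGG site of 501527 had a strong contrast of the second pair of digests, in the same direction, in both haploid embryonic stem cells (ESC) and sperm of the rhesus macaque, Macaca mulatta. It lies on chromosome 15 at position 9854312. Sites were selected by that contrast itself. It was computed in each cell type as the difference of the 2 deposited signals of the pair over their sum, so that 0 means equal signals and 1 means that the first of them holds all. A site was taken when the contrast was 0.5 or more in size in both cell types with the same sign, and when the sum of the 2 signals was at or above its median over shared sites in both tables. The 501527 sites are the 1215827 sites of chromosomes 1 to 20 listed for both cell types that pass this floor. Since the selection used the second pair, its values at the site are a description and carry no test.

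The haploid ESC are parthenogenetic according to the series title, so they carry no paternal genome, and sperm carry the paternal one. Genomic DNA of each cell type was profiled by HMST-Seq with 3 digests, labelled HpaII, BGT_MspI and MspI, at 1 library per digest. The 6 libraries hold no replicates, and the values that follow carry no error between replicates. The labels give no animal, age or cell line, and nothing checks the cell types, since no transcript was measured.

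CCGG sites report modification through the enzyme that cuts them. HpaII cuts unmodified CCGG, and MspI also cuts it when the inner cytosine carries 5-methylcytosine (5mC) or 5-hydroxymethylcytosine (5hmC). Beta-glucosyltransferase (BGT) adds a glucose to 5hmC, and the glucose blocks MspI, so a BGT digest set against plain MspI reads 5hmC. DNA methylation set in the egg or in sperm marks imprinted regions, which the study set out to map according to its title.

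Each deposited table holds 3 distinct signals per site, and no column is named. They are called A, B and C here: A and B make the first pair, and B and C the second. B belongs to both pairs, because the authors printed it in both. Nothing in the tables ties A, B or C to a digest, so no value below is a level of 5mC or 5hmC. Setting the cell types side by side assumes that a letter stands for the same digest in both, and the tables do not show whether it does. The signals have no stated unit, and the read depth behind them is unknown. The genome build of the positions is not given in a form that fits the macaque, so no gene, exon or sequence is given for any site.

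At position 9854312, signal B was 46.2 and signal C 14.0 in haploid ESC. In sperm, signal B was 29.0 and signal C 8.49. B thus exceeded C in both cell types, 3.30-fold in haploid ESC and 3.42-fold in sperm. The contrast was 0.54 in haploid ESC and 0.55 in sperm, both a little inside the threshold. In the authors' deposited tables the adjusted p of the second pair was 3.34e-06 in haploid ESC and 0.000294 in sperm. That adjusted p is not capped as a probability would be, so it is read here as a score. A second-pair call is a cut on that score. With a call taken as an adjusted p under 0.05, B was called higher at 7.65% of the 501527 sites in haploid ESC and at 7.96% in sperm in the authors' deposited tables. C was called higher at 9.87% in haploid ESC and at 7.52% in sperm in the same tables.

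The contrast of the site was extreme in each table but not the most extreme. It ranked 77 in haploid ESC and 17 in sperm among the 501527 sites, counted from the highest B over C. A contrast of 0.5 or more with B higher was held by 194 sites (0.0387%) in haploid ESC and by 82 sites (0.0164%) in sperm. With C higher it was held by 669 sites (0.133%) in haploid ESC and by 119 (0.0237%) in sperm. The 1st and 99th percentiles of the contrast were -0.38 and 0.33 in haploid ESC and -0.33 and 0.32 in sperm. Of the sites, 82.1% in haploid ESC and 85.2% in sperm had a contrast under 0.2 in size.

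The summed signal of the site was closer to the floor in sperm than in haploid ESC. B and C together came to 60.2 in haploid ESC, 1.58 times the floor of 38.1. In sperm they came to 37.5, 1.12 times the floor of 33.5. Of all shared sites, 73.9% had as much summed signal or less in haploid ESC, and 55.3% in sperm.

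**Figure D1:**
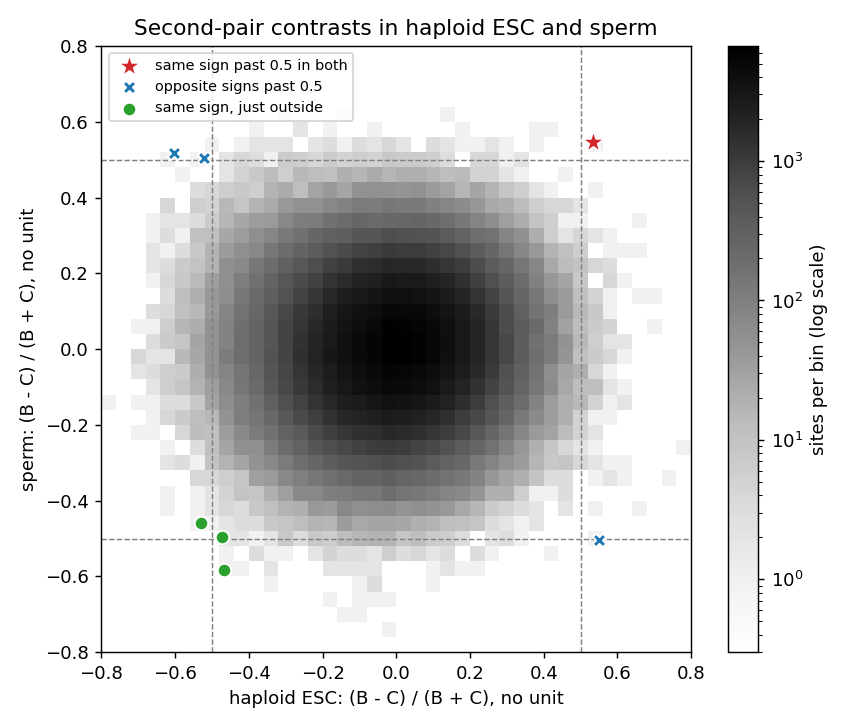
Second-pair contrast in haploid ESC (horizontal axis) and sperm (vertical axis) of the 501527 sites, as counts per bin on a log grey scale, with dashed lines at 0.5 in size. The star is the chromosome 15 site (0.54 and 0.55), crosses are the 3 sites past 0.5 with opposite signs and green circles the 3 same-sign sites just outside.

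The first pair, which the selection did not use but which shares signal B with the second, was called at this site in sperm alone. Signal A was 52.7 in haploid ESC, 1.14 times B, and 80.6 in sperm, 2.77 times B. In the authors' deposited tables the adjusted p of the first pair was 0.104 in haploid ESC and 1.59e-10 in sperm. A was called higher than B, at an adjusted p below 0.05 in the authors' deposited tables, at 24.1% of the 501527 sites in haploid ESC and at 23.6% in sperm. The difference between the cell types at the site was not tested.

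No site within 5000 bp reached the threshold along with it. The nearest listed site lay 306 bp downstream, against a median of 475 bp to the nearest listed site over all 501527. Its signals leaned the same way but were under the floor. There B was 10.3 and C 7.32 in haploid ESC, a contrast of 0.17. In sperm B was 6.12 and C 2.45 at that neighbour, a contrast of 0.43. The nearest site above the floor, 435 bp upstream, had nearly equal signals in haploid ESC, with B at 42.4 and C at 39.1. In sperm its B was 23.3 and its C 30.4, a lean the other way.

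Within 5000 bp on either side, the table of haploid ESC listed 14 other sites and that of sperm 13. Their contrasts ran from -0.29 to 0.17 in haploid ESC and from -0.17 to 0.43 in sperm, so none reached 0.5. The authors' deposited tables called the second pair at 1 of the 14 in haploid ESC and at 0 of the 13 in sperm. The called one, 3349 bp upstream, had C above B, with an adjusted p of 0.00627 for haploid ESC in the authors' deposited table. Only 4 of the 14 and 4 of the 13 passed the floor of their own cell type. Within 500000 bp, sites under the floor included, the authors' deposited tables called 129 of 1052 other sites in haploid ESC. In sperm they called 64 of 978. With so few sites within 5000 bp, nothing is read from the counts of 1 and 0.

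A stretch of 5 sites from 3349 to 2102 bp upstream had A far above B in both cell types. Those at 3080, 2774 and 2102 bp upstream were under the floor on B and C in both cell types. A ran from 27.4 to 164.3 there in haploid ESC and from 49.8 to 153.6 in sperm. The first-pair contrast, A minus B over their sum, lay between 0.58 and 0.86 in haploid ESC and between 0.50 and 0.89 in sperm. At the chromosome 15 site itself it was 0.07 in haploid ESC and 0.47 in sperm. The next site after the stretch, 1491 bp upstream, had A at 29.8 and B at 16.9 in haploid ESC, and A at 92.8 and B at 12.6 in sperm. Downstream, at 306 bp, A was below or level with B, at 4.92 in haploid ESC and 6.07 in sperm. The stretch was picked after its values were seen, and sites with A higher were common around it. Within 500000 bp of the chromosome 15 site, the authors' deposited tables called A higher at 456 of 1052 other sites in haploid ESC. In sperm they did so at 414 of 978. A tie between the stretch and the chromosome 15 site was not tested.

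**Figure D2:**
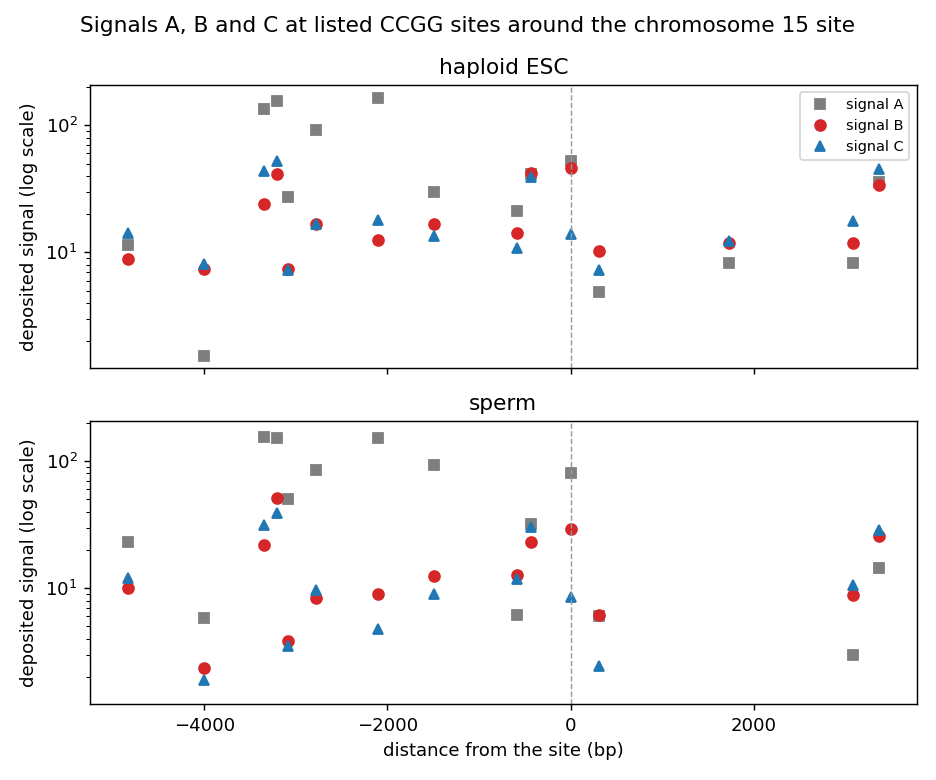
Deposited signals A (squares), B (circles) and C (triangles) on a log axis at the listed CCGG sites within 5000 bp of the chromosome 15 site, by distance in bp, with haploid ESC above and sperm below. At distance 0, B (46.2 and 29.0) stands apart from C (14.0 and 8.49) in both cell types, and 3349 to 2102 bp upstream A stands above B and C.

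Over 500000 bp on either side, 321 other sites passed the floor in both tables. Of these, 58 had B higher in both cell types, 111 had C higher in both and 152 had opposite signs. The same split over all sites above the floor is not given here, so no local lean is read from these counts. The strongest of the 58 reached 0.36 in the weaker of its cell types. No other site of this window met the rule. With each cell type taken singly, the contrasts of other sites above its floor ran from -0.51 to 0.52 in haploid ESC. In sperm they ran from -0.43 to 0.52.

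No site had C higher than B by the same rule. The count of 0 of 501527 has a 95% Wilson interval up to 0.000766%. The 1 site with B higher is a share of 0.000199% (95% Wilson interval 3.52e-05% to 0.00113%). Both intervals cover counting error over sites only. They treat the sites as independent, which they are not, since they share libraries. Chromosome 15 held 23003 of the sites, and the other 19 chromosomes held between 12602 and 45371 each with 0 that met the rule.

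Sites with C higher lay just outside the threshold. The nearest of all same-sign sites was on chromosome 20 at 86722790, with contrasts of -0.47 in haploid ESC and -0.50 in sperm, where the value before rounding was under the threshold in size. There B was 10.7 and C 30.0 in haploid ESC, and B was 32.5 and C 96.5 in sperm. The next was on chromosome 19 at 51207206, with B at 13.7 and C at 37.8 in haploid ESC and B at 8.99 and C at 34.0 in sperm. Its contrast was -0.47 in haploid ESC and -0.58 in sperm. The one after it was on chromosome 16 at 34199328, with contrasts of -0.53 in haploid ESC and -0.46 in sperm. Its signals were the highest of these sites, with B at 29.0 and C at 94.2 in haploid ESC and B at 59.7 and C at 161.0 in sperm. The chromosome 20 site missed the threshold in both cell types, the chromosome 19 site in haploid ESC alone and the chromosome 16 site in sperm alone. The nearest site outside with B higher lay on chromosome 7 at 157466305, with contrasts of 0.46 in haploid ESC and 0.45 in sperm.

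**Figure D3:**
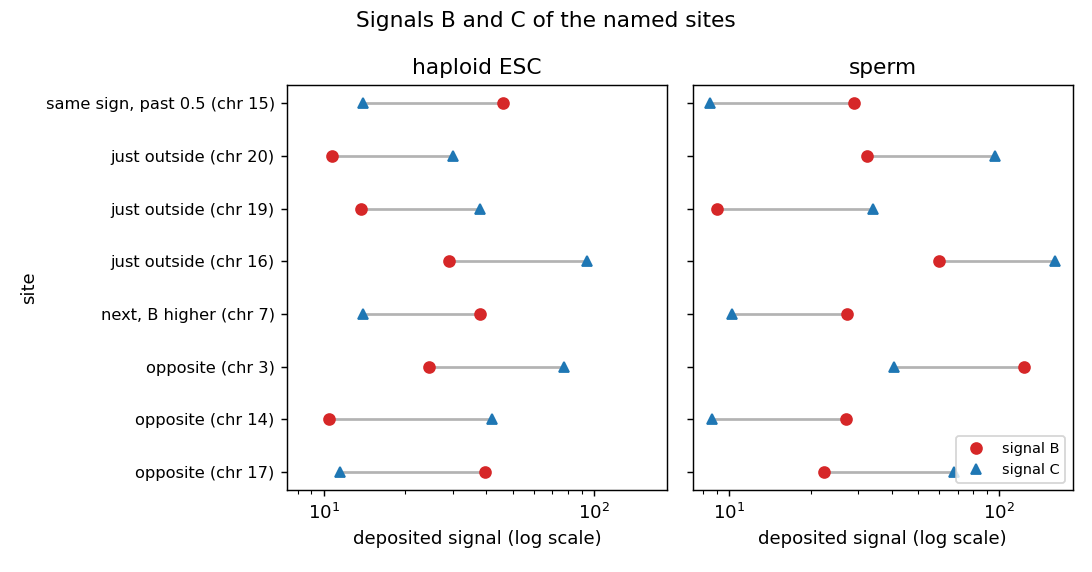
Deposited signals B (circles) and C (triangles) on a log axis at the chromosome 15 site, the same-sign sites just outside the threshold and the opposite-sign sites, in haploid ESC (left) and sperm (right), joined by a grey line. B lies right of C in both panels at the chromosome 15 and chromosome 7 sites, left of C in both at the other same-sign sites, and changes side at the 3 opposite-sign sites.

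Of the 4 sites past 0.5 in size in both cell types, 1 had the same sign and 3 had opposite signs. A further 859 sites passed it in haploid ESC and not in sperm, and 197 in sperm and not in haploid ESC. On chromosome 14 at 7255165, the contrast was -0.60 in haploid ESC, with B at 10.4 and C at 42.1. In sperm it was 0.52 there, with B at 27.1 and C at 8.64.

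Lower thresholds gave many more sites in both directions. At 0.45 in size, 7 sites had the same sign and 6 had opposite signs. At 0.4, 5 sites had B higher and 25 had C higher in both cell types, against 46 with opposite signs. At 0.3 the same sign was held by 539 sites and opposite signs by 641. At 0.2 there were 8020 sites of the same sign and 6982 of opposite signs. Which of them was the more frequent thus changed from threshold to threshold. It also changed with the floor: at 0.2 without the floor 47018 sites had the same sign and 51548 had opposite signs, and at 0.3 with the floor at the 75th percentile the counts were 156 and 153. Among the opposite-sign sites, C higher in haploid ESC with B higher in sperm was the more frequent at each of these thresholds above the median floor, with 40 sites against 6 at 0.4. Taken singly at 0.5, both tables had more sites with C higher than with B higher, 669 against 194 in haploid ESC and 119 against 82 in sperm.

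**Figure D4:**
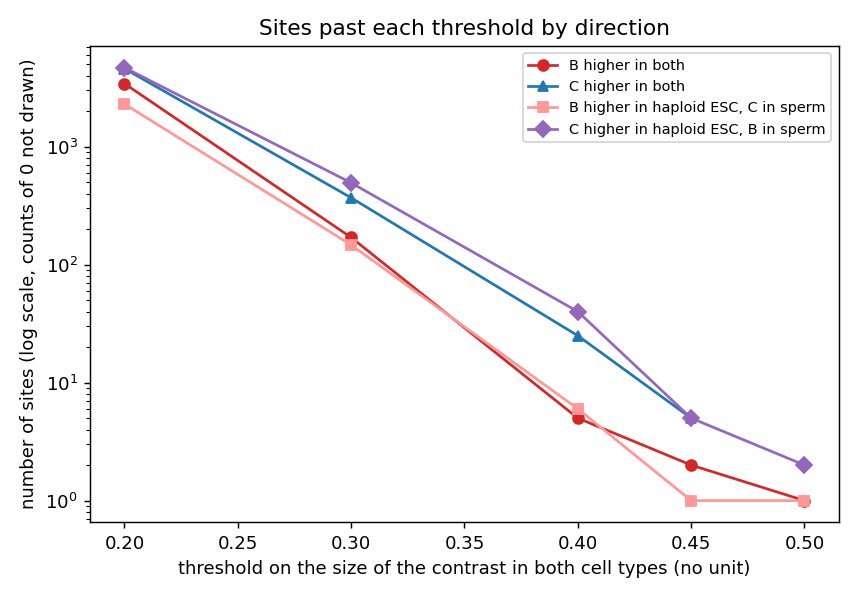
Number of the 501527 sites past each threshold in both cell types, on a log axis, by direction in haploid ESC and sperm. All 4 directions fall steeply, and at 0.5 they stand at 1 (B higher in both), 0 (C higher in both, not drawn), 1 and 2, with the symbols for B higher in both and for B higher in haploid ESC with C higher in sperm on top of each other at 1.

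The authors' own second-pair calls, which need no minimum contrast, gave a wider set for comparison. Calls in both cell types fell on 17697 sites (3.53%) of the authors' deposited tables, 9899 with the same sign (55.9%) and 7798 with opposite signs. Singly, those tables called B higher at 7.65% and C higher at 9.87% of the sites in haploid ESC. In sperm the shares were 7.96% and 7.52%. The overlap and the same-sign share that these single shares alone would give were not worked out. The chromosome 15 site is 1 of the 4177 called with B higher in both. The same-sign calls had a median contrast, in size, of 0.19 in the weaker cell type. The chromosome 15 site was chosen at 0.5 or more in both cell types, so its 0.54 lies above that median by selection. As a description across the 501527 sites, which share libraries and are not independent, the contrasts of haploid ESC and sperm had a Pearson correlation of 0.04 and a Spearman correlation of 0.04. The summed signals of the tables had a Pearson correlation of 0.82 over the same sites.

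Without the floor on signal, 201 sites had B higher and 251 had C higher in both cell types, against 643 with opposite signs. Of these 452 same-sign sites, 451 lay under the floor in both tables. Their median summed signal was 7.69 in haploid ESC and 5.53 in sperm. The authors' deposited tables called the second pair in both cell types at 40 of the 452 (8.85%), against 1.6% of all 1215827 shared sites. The rule chose the 452 by the contrast behind these calls, so nothing is read from that difference. The part of read sampling in contrasts at such low signals was not tested.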

How the data were processed

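DNA of haploid ESC and sperm was profiled at CCGG sites with 3 digests and 1 library each, as single-end 50 bp reads per the labels. The authors deposited 1 table per cell type with 10 unnamed columns, read from their values as chromosome, position and 2 pairs, each with 2 signals, its p-value and the same p-value after adjustment. The deposited signal is normalized in a way not given in the sources used here, as are the aligner, filters and test. Column 4 repeats column 7 in all 1366982 and 1297392 rows (haploid ESC and sperm), which leaves 3 signals for 3 libraries, tied to a cell type and not to a digest. Columns 3, 7 and 8 are A, B and C. The size of the contrast of B and C, without its sign, ranked against the second deposited p-value (Spearman's rho -0.59 and -0.45 across sites). It hardly ranked with the first (0.06 and 0.04). Values are for haploid ESC and sperm in turn. The deposited second adjusted p-value passes 1, so it was read as a score. The submitters' processing notes name hg19, a human build, while the chromosomes are named as in the macaque.

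Tables were joined on chromosome and position. No test was run, since each digest has 1 library and the selection used the values. The rule for named sites took the deepest 10 per sign (only 1 exists), runs of members (none exist), the 3 sites just outside the threshold and the extreme chromosomes. The opposite-sign sites, the chromosome 7 site and the upstream stretch with A above B were named after their values were seen. The ends of that stretch were set in the same way. Members, lists and settings were chosen with earlier results of these data known. The search was tested on simulated data, with planted sites well past the threshold and the floor and all other contrasts well under the threshold. That test does not cover sites near either setting. Python 3.11.15, pandas 2.3.3, numpy 2.4.6, scipy 1.17.1 and matplotlib 3.10.9 were used.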

Additional observations from a re-analysis of the deposited data

Results flagged for a closer look

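The contrast of B and C pointed in opposite directions in the cell types, past 0.5 in size in each, at 3 sites. With 1 library per digest these differences were not tested. On chromosome 3 at 167812666 the contrast in haploid ESC minus that in sperm was -1.02, with B at 24.5 and C at 77.8 in haploid ESC and B at 123.8 and C at 40.8 in sperm. The nearest listed site is 4 bp away, within reach of the same 50 bp read. On chromosome 14 at 7255165 the difference was -1.12, and signal A was 11.2 in haploid ESC and 150.3 in sperm. On chromosome 17 at 94429547 it was 1.05, with B at 39.6 and C at 11.5 in haploid ESC and B at 22.4 and C at 67.8 in sperm.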

How the results depend on the processing

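The count of same-sign sites depends on both settings of the rule. With B higher, 1 site met it, against 5 at a threshold of 0.4, 0 at 0.6, 201 without the floor and 0 with the floor at the 75th percentile. With C higher the count of 0 became 25 at a threshold of 0.4 and 251 without the floor, and was 0 under the other settings. The share of same-sign sites among those past the threshold in both cell types was 25.0% (1 of 4). It was 39.5% (30 of 76) at a threshold of 0.4, 53.8% (7 of 13) at 0.45, 41.3% (452 of 1095) without the floor, 33.3% (1 of 3) without close sites and 0% (0 of 1) with the higher floor. The distance to the nearest listed site, 306 bp, had a median of 865 bp at a threshold of 0.4 and of 387 bp without the floor, over 5 and 201 sites. Leaving out sites at most 50 bp from another kept the chromosome 15 site and changed neither count. The first-pair call at that site was the same at an adjusted p below 0.001 in the authors' deposited tables, made in sperm and not in haploid ESC. At 0.6 and with the higher floor no site was left, so the shares and distances of members have no value there, and those of sites with C higher have none under the rule as given. The thresholds 0.2, 0.3 and 0.45 were added after the data were seen. No paired analysis was possible because each digest had 1 library per cell type. The read depth is unknown, so the precision of a contrast cannot be given.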
